A study of Mus musculus with 12 samples.

Results

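The 10 glycolytic genes described here were followed through all 12 libraries of the series. They were chosen by symbol: Hk1, Gpi1, Pfkp, Aldoa, Tpi1, Pgk1, Eno1 and Pkm, which encode enzymes of the glycolytic steps, and Ldha and Ldhb, which encode the subunits of lactate dehydrogenase. They are 10 of the 22619 symbols in the deposited tables. Glycolysis breaks glucose down to pyruvate in the cytosol. Lactate dehydrogenase, a tetramer of A and B subunits, then interconverts pyruvate and lactate, and tetramers rich in B are known for favouring the use of lactate. Early mouse embryos are known to depend on pyruvate and lactate and to take up little glucose, whereas embryonic stem (ES) cells are known for high glycolytic flux.

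RNA with a poly(A) tail was sequenced by Smart-seq2, which amplifies full-length cDNA from tiny RNA inputs. The embryos were C57BL/6 mice and formed 3 groups. Dcaf11 knockout embryos with the word arrest in the title are called KO arrest (n = 3), the other Dcaf11 knockout embryos KO embryo (n = 3), and wild-type embryos control embryo (n = 2). In 129Sv ES cells Dcaf11 was knocked down (KD ESC, n = 2) or left as it was (control ESC, n = 2). The Dcaf11 protein recruits substrates to a CUL4 ubiquitin ligase. Stage, sex, cells per library and the deleted part of Dcaf11 are not stated, and it is not said that replicates are separate embryos or cultures. The p-values therefore cover the spread between these libraries alone, which may be technical. In such bulk libraries fewer cells of a type and less RNA per cell cannot be told apart.

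Expression was given as FPKM, a read count scaled for gene length and for the reads of the library, so levels of different genes can be set side by side. Depth was read from the deposited coverage, which ran from 0.373 to 2.01 for a gene at 1 FPKM. Between 6573 and 12061 genes reached 1 FPKM, with fewest in control embryo 1, although that library was the deepest. Dcaf11 stood at 4.43, 0.422 and 6.02 FPKM in KO arrest, at 3.99, 2.84 and 0.184 in KO embryos and at 2.82 and 14.3 in control embryos, so the groups overlapped and, with the deleted part unknown, the gene does not check the embryo labels. It stood at 1.69 and 1.83 FPKM in KD ESC and at 6.48 and 4.52 in control ESC (limma, adjusted p = 0.0521). All 8 ES cell markers listed reached 1 FPKM in each ES cell library. Their sum was 2331 to 2632 FPKM in KD ESC and 3053 to 3111 in control ESC. It was 1387 to 1985 FPKM in KO arrest, 1699 to 3022 in KO embryos and 671 to 733 in control embryos. The sum of this list thus does not set KO embryos apart from ES cells. The sum of 13 oocyte and early embryo markers was 938 to 1546 FPKM in KO arrest, 12200 to 18157 in KO embryos, 38121 to 52731 in control embryos and at most 74.3 in ES cells. The sum of 10 fibroblast markers was 0.974 to 4.39 FPKM in KO arrest, with 7 of them at 0 in each library, 62.4 to 97.7 in KO embryos and 17.5 to 69.3 in control embryos. In ES cells that sum was above every embryo library, at 241 to 246 FPKM in KD ESC and 252 to 253 in control ESC. Of 8 blood markers 7 were in the tables, and their sum was at most 10.1 FPKM in KO arrest, 209 to 325 in KO embryos and 71.4 to 173 in control embryos. The part of these markers in the results on the glycolytic genes was not tested.

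Embryos and ES cells held very different amounts of these transcripts. Summed over the 10 genes, the level was 130 ± 16.4 FPKM in KO arrest (SD, n = 3) and 102 ± 24.9 in KO embryos (SD, n = 3). It was 107 and 253 FPKM in the control embryos. In ES cells it was 3016 and 2475 FPKM in KD ESC, against 2250 and 2310 in control ESC. As a share of all named FPKM of a library, the 10 genes made up 0.0213% to 0.0309% in KO arrest and 0.0229% to 0.0330% in KO embryos. The order of these knockout groups is therefore not settled. The gene with the highest level also differed. Aldoa led in KO arrest with 33.8% of the summed group means and in KD ESC with 32.0%. Ldhb led in KO embryos with 49.8% and in control embryos with 66.2%. Pkm led in control ESC with 29.9%. In each group 1 gene was lowest, Pfkp in KO arrest and in KO embryos and Hk1 in the others.

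**Figure D1:**
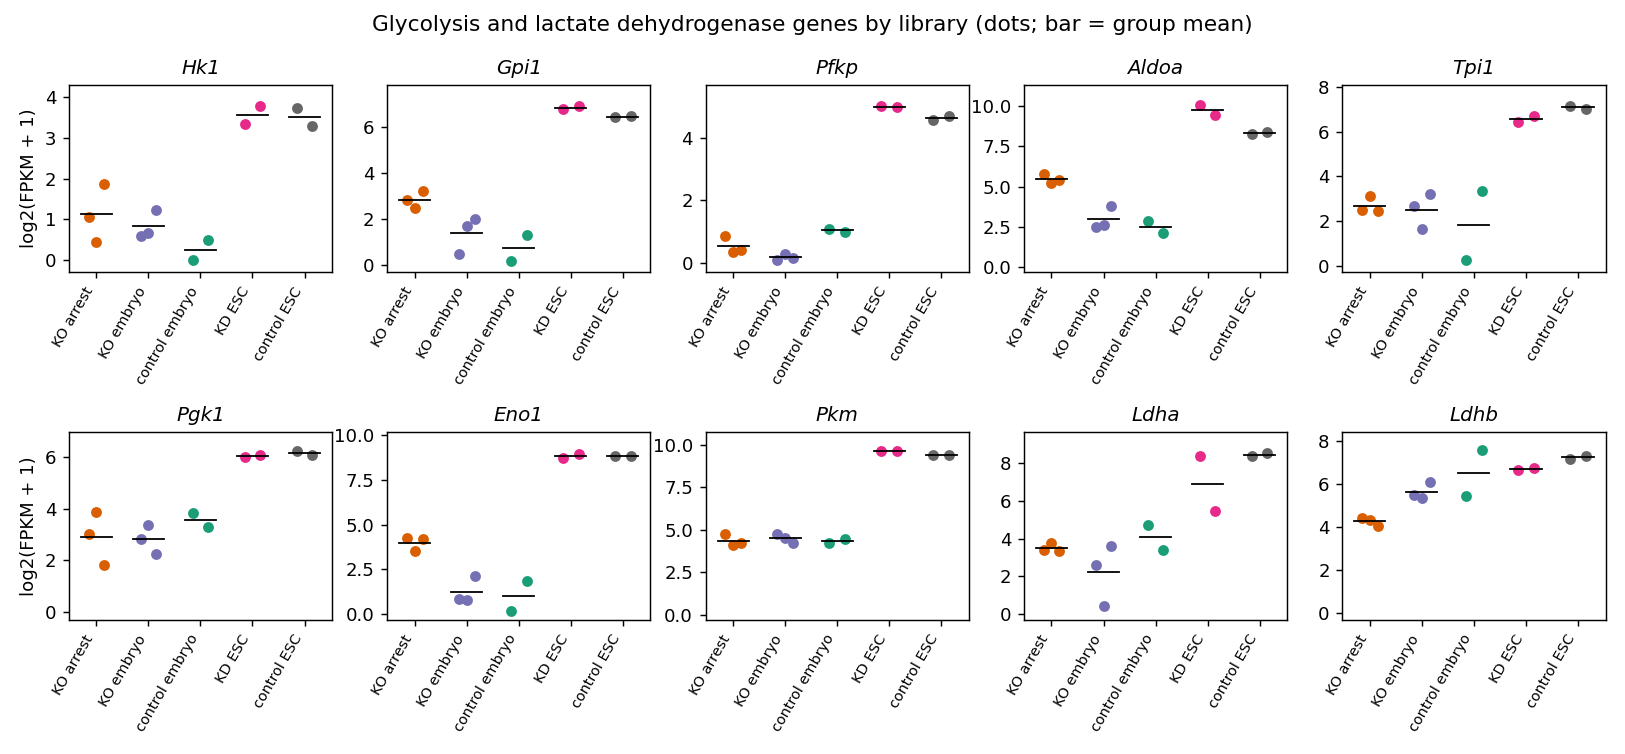
Level of each of the 10 genes in every library, with 1 panel per gene. The y axis is log2(FPKM + 1) with its own range in each panel, dots are libraries and bars are group means of the plotted values. In 9 panels the ES cell libraries sit above all embryo libraries, while in the Ldhb panel control embryo 2 sits above every ES cell library.

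In the upper, sugar-splitting stretch Hk1, Gpi1, Pfkp and Tpi1 stayed below 10 FPKM in every embryo library, whereas Aldoa was the highest of the 10 genes in KO arrest. Hk1 encodes a hexokinase, which traps glucose as glucose 6-phosphate. Hk1 stood at 1.10, 0.349 and 2.63 FPKM in KO arrest, 0.502, 0.582 and 1.36 in KO embryos, and was listed at 0 and at 0.410 in the control embryos. In ES cells Hk1 stood at 9.15 and 12.9 FPKM in KD ESC and at 12.3 and 8.74 in control ESC. The embryo groups lay close to each other except that the KO embryos were all above both controls, and the ES cell groups overlapped.

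Gpi1 encodes glucose phosphate isomerase, which turns glucose 6-phosphate into fructose 6-phosphate. Gpi1 had 6.19, 4.59 and 8.28 FPKM in KO arrest, 0.392, 2.30 and 3.02 in KO embryos and 0.124 and 1.46 in control embryos. It had 107 and 119 FPKM in KD ESC and 85.3 and 86.5 in control ESC. Every KO arrest library was above every other embryo library, and both KD ESC libraries were above both of control ESC. Pfkp encodes the platelet form of phosphofructokinase, the committed step. Its values were 0.833, 0.263 and 0.335 FPKM in KO arrest, 0.0629, 0.223 and 0.105 in KO embryos and 1.12 and 0.990 in control embryos. In KD ESC they were 31.9 and 30.8 FPKM, against 22.8 and 25.2 in control ESC. Both control embryos were above all 6 knockout embryo libraries for Pfkp, at a level so low that the gene failed the filter of the embryo tests.

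Aldoa (mm9 chromosome 7, 133938748 to 133943961, minus strand) encodes aldolase A, which splits fructose 1,6-bisphosphate. It stood at 54.0, 36.3 and 41.3 FPKM in KO arrest, 4.67, 5.08 and 13.004 in KO embryos and 6.35 and 3.35 in control embryos. In ES cells it stood at 1068 and 689.9 FPKM in KD ESC and at 305 and 338 in control ESC. KO arrest was clear of the other embryo groups and KD ESC was clear of control ESC. Tpi1 encodes triosephosphate isomerase, which interconverts the products of aldolase. Tpi1 had 4.55, 7.75 and 4.42 FPKM in KO arrest, 5.34, 2.10 and 8.12 in KO embryos and 0.196 and 9.08 in control embryos. The 3 embryo groups overlapped, and the control embryos spanned the others. In ES cells Tpi1 had 84.5 and 102 FPKM in KD ESC, below the 141 and 128 in control ESC.

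In the lower, ATP-yielding stretch, Pgk1 encodes phosphoglycerate kinase. Its values were 7.14, 13.6 and 2.52 FPKM in KO arrest, 6.05, 9.27 and 3.75 in KO embryos and 13.4 and 8.75 in control embryos, so the embryo groups overlapped. In ES cells they were 62.0 and 65.4 FPKM in KD ESC and 73.1 and 66.9 in control ESC. Eno1 (mm9 chromosome 4, 149611306 to 149622982, plus strand) encodes enolase, which forms phosphoenolpyruvate. It stood at 18.3, 10.6 and 17.1 FPKM in KO arrest, 0.784, 0.758 and 3.40 in KO embryos and 0.146 and 2.60 in control embryos. KO arrest was above both other embryo groups in every library. In ES cells Eno1 stood at 421 and 492 FPKM in KD ESC and at 449 and 446 in control ESC, with KD ESC on both sides of the controls. Eno1 levels are uncertain because a near copy, Gm5506 (Eno1b in RefSeq, annotated as protein coding), had similar values. Gm5506 was at 16.8, 15.8 and 15.5 FPKM in KO arrest, 1.77, 1.04 and 2.45 in KO embryos, 0 and 2.77 in control embryos, 332 and 373 in KD ESC and 422 and 410.1 in control ESC. How reads were split between the loci is not stated.

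Pkm encodes pyruvate kinase M, which makes pyruvate and, by alternative exons, the forms M1 and M2 that gene-level values cannot separate. Pkm was at 25.9, 16.3 and 17.6 FPKM in KO arrest, 26.1, 21.9 and 17.8 in KO embryos and 17.8 and 20.6 in control embryos. The embryo values of Pkm were the most even of the 10 genes, with a lowest of 16.3 and a highest of 26.1 FPKM. In ES cells Pkm had 800.3 and 813 FPKM in KD ESC, above the 679.5 and 684 in control ESC.

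Ldha (mm9 chromosome 7, 54101174 to 54110997, plus strand) encodes the A or muscle subunit of lactate dehydrogenase. It stood at 9.54, 12.6 and 9.01 FPKM in KO arrest, 5.17, 0.362 and 11.2 in KO embryos and 25.5 and 9.66 in control embryos. The embryo groups overlapped, and the lowest value by far was that of KO embryo 2. In ES cells Ldha stood at 331 and 42.8 FPKM in KD ESC and at 336 and 367 in control ESC, so KD ESC 2 stood apart from the other 3 ES cell libraries. Ldhb (mm9 chromosome 6, 142438769 to 142456463, minus strand) encodes the B or heart subunit. It was at 20.9, 19.1 and 15.6 FPKM in KO arrest, 44.1, 39.7 and 68.1 in KO embryos and 42.6 and 196 in control embryos. KO arrest was below both other embryo groups in every library. In ES cells Ldhb was at 102 and 108 FPKM in KD ESC, below the 146 and 159.6 in control ESC. By group mean the order of Ldhb from high to low was control ESC, control embryo, KD ESC, KO embryo and KO arrest. The control embryos differed so much from each other that their place between both ES cell groups lies within their spread.

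Glycolytic genes are known targets of the hypoxia factor HIF-1, whose binding core can be read as ACGTG. Promoter sequences from RefSeq (GRCm38.p6, another build than that of the expression tables) were matched by symbol for all 10 genes, which have 17 start sites among them. The 250 bases before each start were searched for ACGTG or its reverse complement CACGT. The palindrome CACGTG, the E-box that MYC proteins bind, holds both overlapping and was counted as 1 run. Of the 17 windows 5 held the letters, in 4 genes (Aldoa, Pgk1, Pkm and Ldha), against 16.6% of all 32817 windows. A window each of Ldha and Ldhb is shown because the balance of these subunits is measured here, and a window of Aldoa because its call in KO arrest against control embryos held under each of 15 alternatives. Each is read 5′ to 3′ towards the start site, and capitals mark the runs. The windows printed are chr7:46845554-46845803 on the plus strand for Ldha, chr6:142507958-142508207 on the minus strand for Ldhb and chr7:126799255-126799504 on the minus strand for Aldoa.
Ldha: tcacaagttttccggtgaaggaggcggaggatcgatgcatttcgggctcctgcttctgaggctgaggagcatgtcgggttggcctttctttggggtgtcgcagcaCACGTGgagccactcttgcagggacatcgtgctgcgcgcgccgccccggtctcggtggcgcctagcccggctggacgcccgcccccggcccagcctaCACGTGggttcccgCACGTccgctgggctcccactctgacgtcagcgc
Ldhb: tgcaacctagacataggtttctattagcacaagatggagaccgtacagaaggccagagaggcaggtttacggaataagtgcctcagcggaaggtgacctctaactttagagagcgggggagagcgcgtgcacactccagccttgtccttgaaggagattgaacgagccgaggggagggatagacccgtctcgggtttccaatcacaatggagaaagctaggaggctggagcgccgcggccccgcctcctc
Aldoa: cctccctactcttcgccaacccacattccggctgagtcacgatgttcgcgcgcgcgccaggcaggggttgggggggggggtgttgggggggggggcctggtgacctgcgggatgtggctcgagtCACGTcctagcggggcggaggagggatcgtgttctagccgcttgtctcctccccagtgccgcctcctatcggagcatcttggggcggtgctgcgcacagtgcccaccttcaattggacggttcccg
The printed Ldha window held 3 runs, which begin 145, 48 and 34 bases before the start, and only 0.244% of all windows held 3 or more. The other of the 2 Ldha windows held 0. The single Ldhb window held 0. The printed Aldoa window held 1 run, beginning 126 bases before the start, which recurs in an overlapping Aldoa window, and the last of the 3 Aldoa windows held 0. These letters describe the sequence and are not shown to be bound sites.

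The KO embryos were compared with control embryos to ask which of these transcripts differ between knockout and wild-type embryos that were not marked as arrested. No member was called higher or lower in KO embryos. The test was limma on log2(FPKM + 1), the scale of every log2 fold change here, which understates changes of low genes. A gene was called at an adjusted p under 0.05 over all genes tested, and tested if at least 2 libraries of the fit reached 1 FPKM. Of 9 members tested 0 were called, against 6.36% of all 11795 genes (4.86% higher and 1.5% lower). At an unadjusted p under 0.05 by limma the count was 0, without a share of all genes beside it. The median log2 fold change was 0.24 over the 9 members and 0.31 over all genes. Of all calls 76.4% were higher, and 35.6% after median-of-ratios scaling, which moved the median of all genes to −0.04.

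The widest difference was that of Ldha, which averaged 5.57 ± 5.41 FPKM in KO embryos (SD, n = 3) and 17.6 ± 11.2 in control embryos (SD, n = 2). Its log2 fold change of −1.85 ± 0.86 (SE) was not called (limma, adjusted p = 0.235). That value was −0.96 without KO embryo 2, the library with 0.362 FPKM, and Tpi1 at 1.13 and Pgk1 at −1.03 were then wider. Without control embryo 1 it was −1.19. Ldhb had a log2 fold change of −0.88 ± 0.60 (adjusted p = 0.425 by limma), and this value rested on 1 control. Without control embryo 1 it was −1.97 and called (adjusted p = 0.0460), and without control embryo 2 it was 0.21. Hk1 was above both controls in every KO embryo library, with a log2 fold change of 0.58 ± 0.57 that was not called (limma, adjusted p = 0.598). The other 6 members lay between −0.76 for Pgk1 and 0.70 for Tpi1. The direction of Aldoa (0.47) and of Pkm (0.17) turned after median-of-ratios scaling, to −0.14 and −0.50.

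The arrested knockout embryos differed more from the controls. Aldoa, Eno1 and Gpi1 were higher in KO arrest than in control embryos, and Ldhb was lower. By ratio of mean FPKM Aldoa was 9.04-fold higher, Eno1 11.2-fold higher, Gpi1 8.01-fold higher and Ldhb 6.44-fold lower. Pkm, Pgk1, Tpi1, Hk1 and Ldha were not called. Of 9 members tested 3 were called higher, against 16.4% of all genes, and 1 lower, against 8.87% of all genes. The median log2 fold change was 0.87 over the 9 members and 0.45 over all genes. Of all calls 64.9% were higher, 45.0% after median-of-ratios scaling and 50.6% with TPM, and the first of these moved the median of all genes to 0.03.

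Aldoa averaged 43.9 ± 9.13 FPKM in KO arrest (SD, n = 3) and 4.85 ± 2.12 in control embryos (SD, n = 2). Its log2 fold change was 2.97 ± 0.57 (SE; limma, adjusted p = 0.00472), and the call held under each of 15 alternatives, with adjusted p from 0.000987 to 0.0236. Eno1 had a log2 fold change of 2.98 ± 0.73 (limma, adjusted p = 0.0144). Without control embryo 1, where it was lowest, Eno1 stood at 2.15 and was not called (adjusted p = 0.0819 by limma). With the near copy Gm5506 added in, a step chosen after the values were seen, its log2 fold change was 3.57 (limma, adjusted p = 0.00769). Gpi1 had a log2 fold change of 2.11 ± 0.70 close to the threshold (adjusted p = 0.0485 by limma), and the call held under 3 of 15 alternatives. Leaving out control embryo 1 gave 1.55 for Gpi1 (limma, adjusted p = 0.210), and leaving out any single KO arrest or KO embryo library also ended the call. These 3 genes were above both controls in each of 3 KO arrest libraries. How many of all genes were separated in that way was not computed.

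Ldhb averaged 18.5 ± 2.68 FPKM in KO arrest (SD, n = 3), against 119 ± 108 in control embryos (SD, n = 2). Its log2 fold change was −2.26 ± 0.60 (limma, adjusted p = 0.0203), with each KO arrest library below both controls. The size rested on control embryo 2, without which the log2 fold change was −1.17 and not called (limma, adjusted p = 0.0859). Without control embryo 1 it was −3.34, and leaving out KO arrest 2 or 3 gave adjusted p-values of 0.0515 and 0.0588 by limma. For Ldha the log2 fold change was −0.57 ± 0.86, and for Pkm it was 0.03 ± 0.46 with a 95% interval from −0.98 to 1.03. Hk1 had 0.87 ± 0.57, Tpi1 0.88 ± 0.90 and Pgk1 −0.66 ± 0.70, each with overlapping libraries. Tpi1 without control embryo 2 was 2.42 and called (limma, adjusted p = 0.0410).

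**Figure D2:**
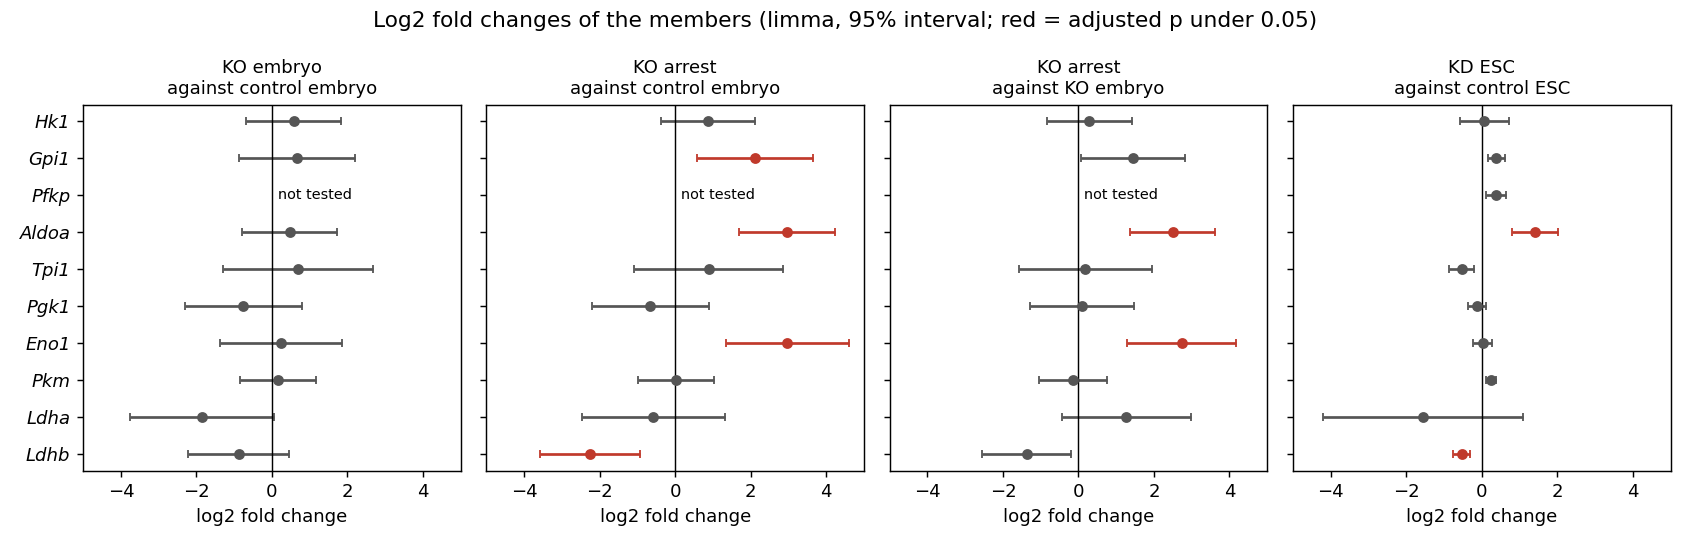
Log2 fold change of each gene in 4 comparisons, on the log2(FPKM + 1) scale, from limma. Points are estimates, lines are 95% intervals, red marks an adjusted p under 0.05 and Pfkp failed the filter in embryos. Aldoa is red in 3 panels and Ldhb in 2, while no point is red for KO embryos against control embryos.

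Arrested and other knockout embryos carry the same genotype label, so their labels differ in the word arrest alone. The libraries also differed in the summed oocyte, fibroblast and blood markers, for example 938 to 1546 FPKM in KO arrest and 12200 to 18157 in KO embryos for the oocyte and early embryo list. Arrest therefore cannot be told apart from stage or cell content here. Aldoa and Eno1 were higher in KO arrest, by 5.78-fold and 9.33-fold in mean FPKM. Of 9 members tested 2 were called higher, against 4.93% of all genes, and 0 lower, against 3.65% (8.58% in either direction). The count at an unadjusted p under 0.05 by limma was 4, without a share of all genes beside it, so nothing is read from it. Over the 9 members the median log2 fold change was 0.29, and over all genes it was 0.07. Of all calls 57.4% were higher, and 29.3% with TPM, which moved the median of all genes to −0.27.

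Aldoa had a log2 fold change of 2.50 ± 0.51 (SE; limma, adjusted p = 0.0173) and Eno1 one of 2.74 ± 0.65 (limma, adjusted p = 0.0292). The call of Aldoa was lost without KO arrest 1, 2 or 3 or without KO embryo 1 or 2, at log2 fold changes of 2.26 to 2.62 and adjusted p-values up to 0.0714. Eno1 was lost without the same libraries, and also with TPM, without a filter and with a pseudocount of 0.1, and its adjusted p reached 0.105. Gpi1 was higher in each KO arrest library than in each KO embryo, at 1.45 ± 0.63, and was not called (limma, adjusted p = 0.172). Ldhb was lower in each, 18.5 ± 2.68 FPKM in KO arrest against 50.6 ± 15.3 in KO embryos (SD, n = 3 each). The log2 fold change of −1.37 ± 0.54 was not called (limma, adjusted p = 0.136), though it was called in the fits without control embryo 1 or 2 (adjusted p = 0.0210 and 0.0217). Ldha had a positive log2 fold change of 1.27 ± 0.77 and was not called (limma, adjusted p = 0.325). It was 0.38 without KO embryo 2 and 1.96 without KO embryo 3. The comparisons of KO arrest with KO embryos and of both with the controls share libraries, so their fold changes are not independent.

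In ES cells the knockdown was compared with its control. Aldoa was 2.73-fold higher in KD ESC by mean FPKM and Ldhb 1.45-fold lower. Of 10 members tested 1 was called higher, against 2.59% of all 12264 genes, and 1 lower, against 3.64% (6.23% in either direction). Their median log2 fold change was 0.04, and that of all genes −0.09. Of all calls 41.6% were higher, and 55.1% after median-of-ratios scaling.

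Aldoa averaged 879 ± 267 FPKM in KD ESC and 322 ± 23.4 in control ESC (SD, n = 2 each), a log2 fold change of 1.41 ± 0.22 (SE; limma, adjusted p = 0.0461). Ldhb averaged 105 ± 3.59 FPKM in KD ESC and 153 ± 9.77 in control ESC (SD, n = 2 each), a log2 fold change of −0.53 ± 0.08 (limma, adjusted p = 0.0436). Both calls were close to the threshold. That of Aldoa held under 4 of 11 alternatives and was lost without control ESC 1 or 2 (adjusted p = 0.213 and 0.194 by limma). That of Ldhb held under 3 of 11 and was lost without any single library, at log2 fold changes of −0.47 to −0.60. Gpi1, Pfkp and Pkm were higher in both KD ESC libraries than in both controls, with log2 fold changes of 0.39 ± 0.09, 0.37 ± 0.10 and 0.24 ± 0.05. None of these passed the threshold (limma, adjusted p = 0.0707, 0.0978 and 0.0697). Tpi1 was lower in both, at −0.53 ± 0.12, and was not called either (limma, adjusted p = 0.0775). Which members were called depended on the scaling. After median-of-ratios scaling Pkm was called at 0.32 (limma, adjusted p = 0.0461), and Ldhb at −0.45 was not (limma, adjusted p = 0.0525). The members called were then 2 higher and 0 lower. With 2 against 2 libraries full separation gives at best p = 0.333 by exact permutation, so it adds no support. The share of all genes so separated was not computed. Ldha had the largest log2 fold change in size, −1.55 ± 0.99, with the widest error (limma, adjusted p = 0.355). It came from KD ESC 2, and without KD ESC 1 it was −3.01 and called (limma, adjusted p = 0.0119). Pgk1 at −0.13 ± 0.09, Eno1 at 0.02 ± 0.09 and Hk1 at 0.06 ± 0.24 were not called.

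Wild-type embryos and control ES cells were set side by side as 2 cell states, which differ in strain as well. Of 10 members 9 were lower in control embryos and 0 higher, against 40.8% and 12.6% of all 14447 genes (53.4% in either direction). The exception was Ldhb. Pfkp, 1 of the 9, passed the filter of this fit through the ES cells alone, so its call could hardly go the other way. Genes of the related lists below and of the whole series could enter in the same way (14447 genes tested here, 11795 in embryos). The median log2 fold change was −4.73 over the members and −1.01 over all genes. Of all calls 23.6% were higher, and 36.8% after median-of-ratios scaling, with the median of all genes at −0.45.

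Eno1 had the largest fall, to 1.37 ± 1.73 FPKM in control embryos, against 447 ± 2.18 in control ESC (SD, n = 2 each). On the log2 scale it was −7.79 ± 0.60 (SE; limma, adjusted p = 9.00e-06). The log2 fold change was −5.83 for Aldoa, −5.71 for Gpi1, −5.29 for Tpi1 and −5.08 for Pkm, with standard errors between 0.30 and 0.85. Pkm was 35.5-fold lower in mean FPKM in control embryos, and Pgk1, the least changed of the 9, was 6.33-fold lower. Pgk1 had a log2 fold change of −2.58 ± 0.61 (limma, adjusted p = 0.00527) and lost its call after median-of-ratios scaling, at −1.60 (adjusted p = 0.0727 by limma). The other 8 calls held under each alternative run for this comparison. On the same scale Hk1 had −3.26, Pfkp −3.60 and Ldha −4.39. Ldha averaged 17.6 ± 11.2 FPKM in control embryos, against 351 ± 21.8 in control ESC, 19.98-fold lower (SD, n = 2 each).

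Ldhb averaged 119 ± 108 FPKM in control embryos and 153 ± 9.77 in control ESC (SD, n = 2 each). On the log2 scale the difference was −0.73 ± 0.58 (limma, adjusted p = 0.311), with overlapping libraries and a 95% interval from −2.02 to 0.56. The control embryos disagreed on it, since the value without control embryo 1 was 0.36, whereas leaving out control embryo 2 gave −1.82, which was called (limma, adjusted p = 0.00216). After median-of-ratios scaling it was 0.29.

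Whether the knockout in embryos and the knockdown in ES cells moved these genes differently was tested on the difference of the 2 effects, that is KO embryo minus control embryo, less KD ESC minus control ESC. Of 10 members 0 were called by limma, against 2.69% of all 14447 genes (2.06% higher and 0.623% lower). Without a share of all genes beside it, 1 member had an unadjusted p under 0.05. That gene was Pfkp, with a difference of −1.24 ± 0.46 (SE; limma, adjusted p = 0.190). Pfkp passed the filter of this fit through the ES cells alone, and its embryo values of 0.0629 to 1.12 FPKM lie near or below the filter's 1 FPKM, so nothing is read from this difference. Aldoa had a difference of −0.94 ± 0.65 and Ldhb one of −0.35 ± 0.78, with 95% intervals from −2.39 to 0.51 and from −2.10 to 1.40. The difference of Tpi1 without control embryo 2 was 2.76 and called (limma, adjusted p = 0.0403), and it was 1.22 with all libraries. Of all calls 76.8% were higher, and 39.3% after median-of-ratios scaling.

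The balance of the lactate dehydrogenase subunits can be read within a library, whatever its scaling, as the share of Ldhb in the sum of Ldha and Ldhb. Ldhb made up most of the sum in all 8 embryo libraries and in 1 of 4 ES cell libraries. The share was 68.6%, 60.3% and 63.4% in KO arrest and 89.5%, 99.1% and 85.9% in KO embryos. It was 62.5% and 95.3% in control embryos. KO arrest was thus below KO embryos in every library, while 1 control lay within the range of KO arrest and the other within that of KO embryos. The share was 23.7% and 71.5% in KD ESC, against 30.3% and 30.3% in control ESC.

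The mean share was 64.1% ± 4.22 in KO arrest and 91.5% ± 6.82 in KO embryos (SD, n = 3 each), a difference of −27.4 percentage points. The two-sided exact permutation test gave p = 0.1, the smallest that 3 against 3 libraries allow, and 0.5 after adjustment over the 5 comparisons of the share. KO arrest was 14.8 points below the control embryos on average (difference −14.8, exact p = 0.6, smallest possible 0.2), and KO embryos were 12.6 points above them (exact p = 0.6). KD ESC was 17.3 points above control ESC, with exact p = 1, and the sign turned without KD ESC 2. Control embryos were 48.6 points above control ESC, with no overlap, where exact p = 0.333 is the smallest that 2 against 2 libraries allow. None of these designs could reach 0.05.

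**Figure D3:**
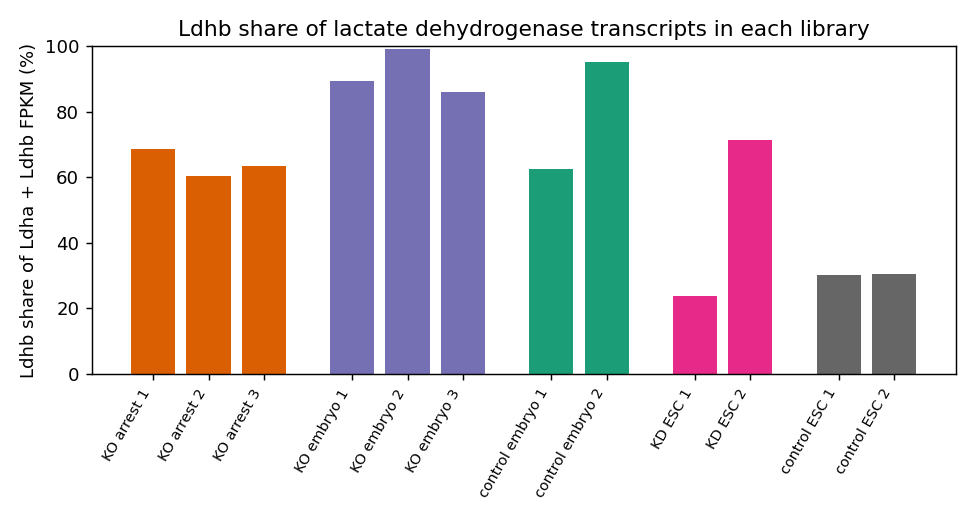
Share of Ldhb in the sum of Ldha and Ldhb FPKM, in percent, with 1 bar per library. The 3 KO arrest bars (60.3% to 68.6%) are below the 3 KO embryo bars (85.9% to 99.1%), and 3 of 4 ES cell bars are at or below 30.3%.

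The genes whose pattern across the 12 libraries was most like that of Ldhb, by Pearson's r of log2(FPKM + 1) among 13119 genes, were Angptl2 (r = 0.959), Nr1d1 (0.951) and Pak4 (0.946). Angptl2 encodes a secreted angiopoietin-like protein, Nr1d1 a nuclear receptor of the circadian clock and Pak4 a p21-activated kinase. Within the 8 embryo libraries their r was 0.957, 0.936 and 0.923. Most like Ldha were Egfl6 (r = 0.952), Slc7a3 (0.938), a cationic amino acid transporter, and Itgb1 (0.938), the integrin beta-1 chain. In the embryo libraries alone these r were 0.707, 0.712 and 0.835. Since embryo and ES cell libraries form separate clouds, these values describe likeness of pattern only.

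Other genes of glucose and pyruvate metabolism were followed in 6 lists, and the share of all genes called is given beside their counts. Counts at an unadjusted p under 0.05 have no such share beside them, so nothing is read from those. Of 20 other enzymes of the glycolytic steps, 10 were tested in embryos. Their counts of calls in KO arrest against control embryos were near the shares of all genes. Pgam1 encodes the mutase of glycolysis, and Bpgm the mutase that makes 2,3-bisphosphoglycerate, known from red cells. Pgam1 was at 46.3, 64.7 and 63.9 FPKM in KO arrest, 17.3, 15.6 and 20.4 in KO embryos, and listed at 0 and at 12.05 in control embryos. Bpgm was at 23.6, 11.8 and 28.6 FPKM in KO arrest, 70.1, 91.8 and 59.8 in KO embryos and 239 and 349 in control embryos. The groups did not overlap for either gene, and how many of all genes were separated in that way was not computed. Of 10 tested, Pgam1 and Pgam2 were called higher and Bpgm lower in KO arrest against control embryos, where 16.4% of all genes were called higher and 8.87% lower. Bpgm had a log2 fold change of −3.78 ± 0.46 (SE; limma, adjusted p = 0.000514) and Pgam1 one of 4.02 ± 0.86 (limma, adjusted p = 0.00777), and both calls held under 15 of 15 alternatives. Pgam1 was 2.17 at its lowest and 5.87 at its highest, without control embryo 1 and without control embryo 2. Pgam2, the muscle mutase, had 2.54, 11.05 and 52.7 FPKM in KO arrest and was listed at 0 in both control embryos (limma, adjusted p = 0.0333, call held under 10 of 15 alternatives). With both controls at 0, a call of Pgam2 could only be higher, so nothing is read from it.

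Bpgm was the 1 gene of the 10 called in KO embryos (6.36% of all genes), 3.98-fold lower than in control embryos by mean FPKM (log2 fold change −1.97 ± 0.46; limma, adjusted p = 0.0361). It was lower in KO arrest than in KO embryos as well (−1.81 ± 0.41; adjusted p = 0.0253 by limma), and each of these 2 calls held under 9 of 15 alternatives. The summed blood markers were at most 10.1 FPKM in KO arrest and 209 to 325 in KO embryos, against 71.4 to 173 in control embryos, and their part in the level of Bpgm was not tested. In KD ESC Pgam1 was the 1 gene of 11 called (6.23% of all genes), at 231 and 228 FPKM in KD ESC and 319.9 and 323 in control ESC (log2 fold change −0.48 ± 0.06; limma, adjusted p = 0.0348). That call was lost without control ESC 1 or 2 (adjusted p = 0.214 and 0.208 by limma). Against control ESC the control embryos were lower for 9 of 14 genes tested, against 40.8% of all genes, and higher for 1, against 12.6%. Gapdh, the dehydrogenase that follows Tpi1, was at 4.61 and 7.44 FPKM in control embryos and 1041 and 1069 in control ESC, and fell by 7.26 on the log2 scale. Hk2, the insulin-regulated hexokinase, was listed at 0 and at 0.227 in control embryos, against 123 and 125 in control ESC. Bpgm ran the other way, 30.5-fold higher in control embryos by mean FPKM, at 10.8 and 8.49 FPKM in control ESC.

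**Figure D4:**
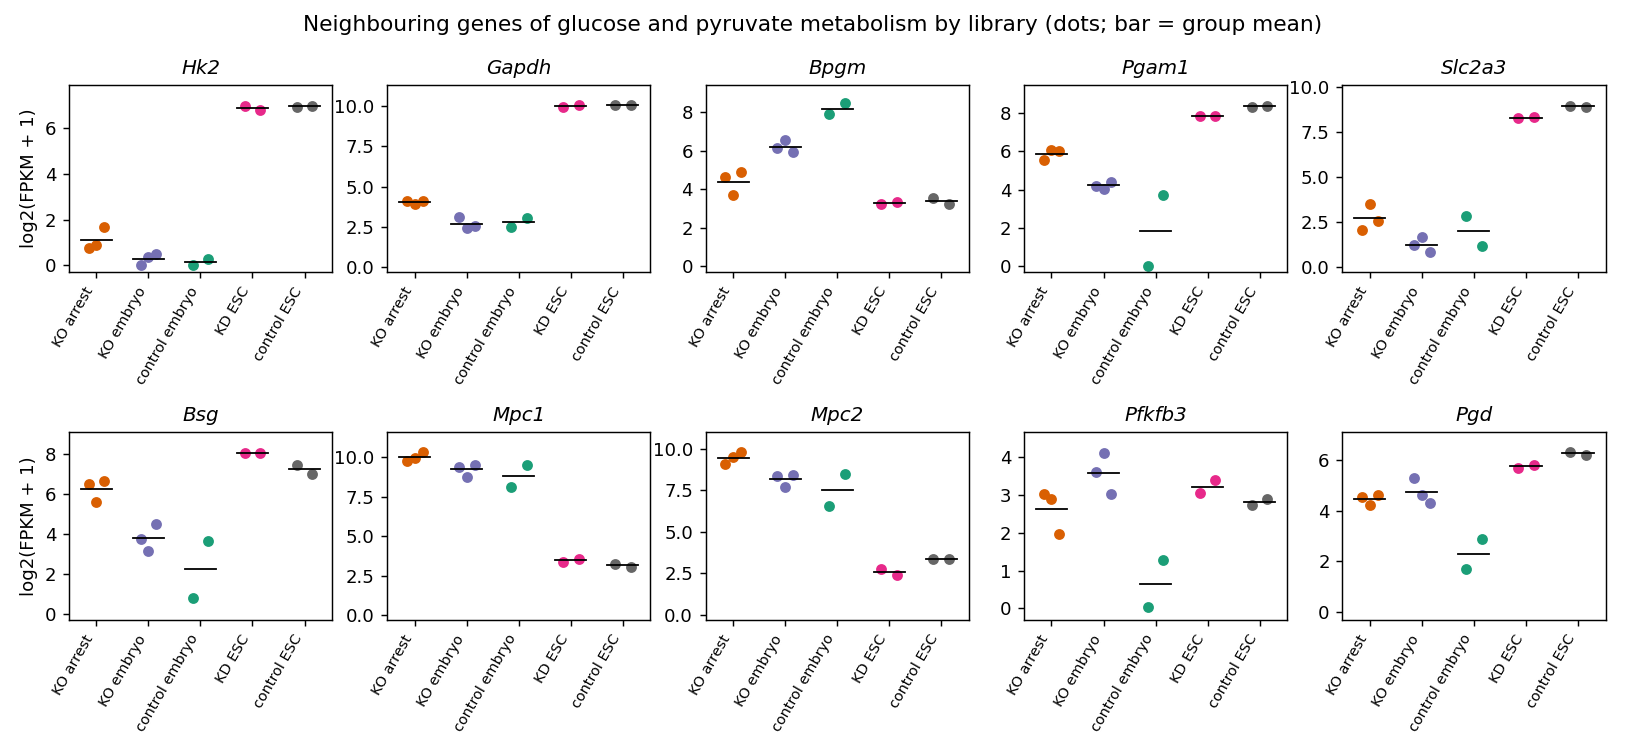
Level of 10 related genes in every library, with 1 panel per gene. The y axis is log2(FPKM + 1) with its own range in each panel, dots are libraries and bars are group means of the plotted values. Bpgm, Mpc1 and Mpc2 are higher in every embryo library than in every ES cell library. Bpgm is lowest in KO arrest, higher in KO embryos and highest in control embryos, without overlap. The share of all genes separated in such ways was not computed.

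Among 12 transporters, Bsg and Mpc2 were higher in KO arrest than in control embryos. Basigin (Bsg) is the chaperone that brings monocarboxylate transporters to the membrane, and Mpc1 and Mpc2 form the mitochondrial pyruvate carrier. Bsg was at 89.0, 47.4 and 99.3 FPKM in KO arrest, 12.5, 7.78 and 22.0 in KO embryos and 0.719 and 11.7 in control embryos. Its log2 fold change against the controls was 4.02 ± 0.80 (SE; limma, adjusted p = 0.00537), and the call held under 15 of 15 alternatives. Mpc2 stood at 541, 735 and 905 FPKM in KO arrest, 337, 212 and 339 in KO embryos and 94.6 and 354 in control embryos. Its call against the controls (1.95 ± 0.52; adjusted p = 0.0213 by limma) was lost without control embryo 1, at 1.01 (adjusted p = 0.133). Of 7 transporters tested 2 were called higher there (16.4% of all genes) and 0 lower (8.87%). In KO embryos limma called 0 of 7 (6.36% of all genes), with 0 at an unadjusted p under 0.05. In KD ESC the glucose transporter Slc2a3 was lower, the 1 call among 9 tested (6.23% of all genes), at 302 and 316 FPKM against 497 and 478 in control ESC (−0.66 ± 0.06; limma, adjusted p = 0.0293), a call lost without control ESC 1 or 2. All 9 tested were called in control embryos against control ESC, 7 lower and 2 higher, where 40.8% of all genes were called lower and 12.6% higher. Slc2a3 was 134.5-fold lower by mean FPKM and Slc2a1 fell by 4.23 on the log2 scale. Mpc1 was 63.4-fold higher, at 282 and 714 FPKM in control embryos against 8.51 and 7.20 in control ESC, and Mpc2 was 24.0-fold higher. These calls of Slc2a1, Slc2a3, Mpc1 and Mpc2 held under 18 of 18 alternatives.

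The pyruvate dehydrogenase complex feeds pyruvate carbon into the citric acid cycle, and its kinases and phosphatases set its activity. Of 9 genes tested in embryos, Pdhb and Dld, subunits of the complex, were called higher in KO arrest than in control embryos, a count near the 16.4% of all genes. Pdhb was at 107, 92.5 and 158 FPKM in KO arrest and 35.0 and 39.4 in control embryos (log2 fold change 1.62 ± 0.40; limma, adjusted p = 0.0145; held under 12 of 15 alternatives). The call of Dld (2.58 ± 0.84; limma, adjusted p = 0.0451) held under 3 of 15, and without control embryo 1 its value was 1.31. In KO embryos the phosphatase Pdp2 was the 1 gene of 9 called higher (4.86% of all genes), at 126, 105 and 201 FPKM, against 45.3 and 28.9 in control embryos (1.91 ± 0.43; limma, adjusted p = 0.0318; held under 7 of 15). In KD ESC limma called 0 of 11 (6.23% of all genes), with 4 at an unadjusted p under 0.05. Control embryos were lower than control ESC for 5 of 12, a count at the background of 40.8% of all genes. Of these the kinases Pdk4 and Pdk2, Dld and the testis form Pdha2 had the smallest p.

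Fructose 2,6-bisphosphate, made and removed by the Pfkfb enzymes, is a strong activator of phosphofructokinase. Pfkfb3, an isoform with high kinase activity, was at 11.1, 16.2 and 7.12 FPKM in KO embryos and 0.0288 and 1.41 in control embryos (log2 fold change 2.92 ± 0.68; limma, adjusted p = 0.0348). Pfkfb2, the heart isoform, ran the other way, at 0.182, 0.0373 and 1.02 FPKM in KO embryos and 13.2 and 4.16 in control embryos (−2.66 ± 0.63; limma, adjusted p = 0.0368). Of 9 genes tested in that list these 2 were called (6.36% of all genes), and the calls held under 7 of 15 and 4 of 14 alternatives. Without control embryo 1 the values were 2.31 and −1.93, and neither was called. In KO arrest Pfkfb2, the 1 gene of 9 called lower (8.87% of all genes), was also below the controls (−2.37 ± 0.63; limma, adjusted p = 0.0202; held under 10 of 14). Between KO arrest and KO embryos Fbp2, a fructose bisphosphatase, was the 1 gene of 9 called higher (4.93% of all genes), at 25.4, 18.5 and 9.09 FPKM against 5.37, 0 and 0.392 (3.06 ± 0.84; limma, adjusted p = 0.0474; held under 6 of 15). In KD ESC limma called 0 of 8 (6.23% of all genes), with 2 at an unadjusted p under 0.05. Control embryos were lower than control ESC for 2 of 10, Pcx and Pfkfb3, against 40.8% of all genes.

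Pentose phosphate enzymes draw on glucose 6-phosphate to make NADPH and ribose. Pgd, the phosphogluconate dehydrogenase that makes NADPH, was at 22.3, 17.4 and 23.8 FPKM in KO arrest, 38.0, 23.6 and 18.5 in KO embryos and 2.24 and 6.46 in control embryos. It was called higher in KO arrest (log2 fold change 2.16 ± 0.55; limma, adjusted p = 0.0167; held under 13 of 15) and in KO embryos (2.43 ± 0.55; limma, adjusted p = 0.0312; held under 6 of 15). Without control embryo 1 these were 1.56 and 1.83, and neither was called. Pgd was the 1 gene of 7 called in KO embryos (4.86% of all genes called higher), and it was 1 of 2 in KO arrest (16.4%). The other was Taldo1, transaldolase (1.89 ± 0.61; limma, adjusted p = 0.0440; held under 3 of 15). In KD ESC limma called 0 of 8 (6.23% of all genes), with 4 at an unadjusted p under 0.05. Control embryos were lower than control ESC for 5 of 8, against 40.8% of all genes, led by H6pd, Tkt, Pgd and Taldo1, of which Tkt fell by 5.29 on the log2 scale.

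Among 8 regulators, Vhl, the ubiquitin ligase subunit that destroys HIF alpha chains, was the 1 of 7 tested called higher in KO arrest (16.4% of all genes), at 94.98, 82.8 and 89.2 FPKM against 44.6 and 17.5 in control embryos (1.63 ± 0.47; limma, adjusted p = 0.0293). That call held under 7 of 15 alternatives, and the value was 0.98 without control embryo 2. By limma 0 of 7 regulators were called in KO embryos (6.36% of all genes), with 1 at an unadjusted p under 0.05. In KD ESC 0 of 8 were called (6.23% of all genes), with 3 at an unadjusted p under 0.05. Hif1a, the oxygen-regulated HIF chain, was at 0.137 and 3.76 FPKM in control embryos and 33.9 and 35.7 in control ESC and fell by 3.94 on the log2 scale. Epas1, Egln3 and Mycn were lower in control embryos too, and 5 of the 8 regulators in all were called lower there, against 40.8% of all genes.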

How the data were processed

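Per the labels' protocols, libraries were made by Smart-seq2. The deposited tables hold 1 StringTie-style line per gene with FPKM, TPM and coverage, in which the authors' values are already normalised and no counts are given. The submitters' processing notes name STAR 0.6.0, StringTie, DESeq2 and mm9, with no role for any of them. FPKM was summed per symbol, and unnamed lines (0.549% to 1.19% of FPKM) were left out. Genes reaching 1 FPKM in at least 2 libraries of a fit were tested with limma 3.58.1 (R 4.3.3) on log2(FPKM + 1), with a trended prior and Benjamini-Hochberg adjustment over all genes. Embryos (8 libraries) and ES cells (4) were fitted apart, and all 12 together for embryos against ES cells and for the difference of effects. Shares were tested by exact permutation with scipy 1.17.1. Intervals are 95%. Other tools were pandas 2.3.3, numpy 2.4.6, matplotlib 3.10.9 and Python 3.11.15. The fits were run on simulated data with effects of 4 log2 units in well-expressed genes and the same spread in every group. That run does not show how the fits treat smaller effects, low genes or the uneven control embryos. All 10 members are named, and of each related list at most the 4 genes of smallest p per comparison among those called. Members and lists were chosen with earlier results of these data known. Coverage, not total reads, gives the depth, so no counting interval can be given.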

Additional observations from a re-analysis of the deposited data

Results flagged for a closer look

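Pgd, which encodes the NADPH-forming phosphogluconate dehydrogenase, is given here because it was the 1 related gene called in the difference of effects. It was 1 of 8 pentose phosphate enzymes tested, against 2.69% of all genes called. In the other related lists 0 of 14, 0 of 9, 0 of 12, 0 of 10 and 0 of 8 were called, so the call does not stand out from that share. It stood at 38.0, 23.6 and 18.5 FPKM in KO embryos and 2.24 and 6.46 in control embryos, and at 50.1 and 55.1 FPKM in KD ESC and 79.5 and 71.3 in control ESC. The difference of the effects, tested as an interaction term, was 2.94 ± 0.61 on the log2(FPKM + 1) scale (SE; limma, adjusted p = 0.0386). The call held under 8 of 18 alternatives, with values from 2.32 to 3.55 and adjusted p from 0.00368 to 0.181, and it was lost when any 1 ES cell library, KO arrest 2 or 3, or KO embryo 1 or 2 was left out.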

How the results depend on the processing

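Each value was recomputed with a pseudocount of 0.1, no filter, a filter at 5 FPKM, TPM, median-of-ratios scaling, the replicate number as a block, all 12 libraries in 1 fit and each library left out. The replicate numbers did not pair the libraries (correlations of deviations −0.101 to 0.0247), so the block is given here only. Where leaving out a library left 1 in its group, that sample was assumed to vary like the others. The Eno1 and Gm5506 sum and the alternatives for related genes were chosen after seeing the data. The cause of the changes below was not tested.

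Of the log2 fold changes of the 10 genes, 348 kept direction and side of the threshold under alternatives other than leaving out a library, 21 lost a call, 1 gained one and 12 turned. With libraries left out, 434 kept both, 27 lost a call, 7 gained one and 28 turned. For KO embryos against control embryos, Aldoa turned to −0.14 and Pkm to −0.50 with median-of-ratios scaling, and Eno1 to −0.024 with the replicate block. For KO arrest against control embryos, Pkm turned to −0.47 with TPM and −0.68 with median-of-ratios scaling. For KO arrest against KO embryos, Tpi1 turned to −0.18 and Pgk1 to −0.32 with TPM. For control embryos against control ESC, Ldhb turned to 0.29 with median-of-ratios scaling. In the difference of effects, Eno1 turned to −0.031 with median-of-ratios scaling and −0.048 with the block, and Pkm to 0.031 with the block. For KD ESC, the Eno1 and Gm5506 sum gave −0.10.

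For KO embryos against control embryos, genes called numbered 269 without a filter, 76 with the block and 1709 in 1 fit of all libraries, against 750. For KO arrest against control embryos, members called numbered 2 without a filter and 2 with the block, and all genes 1965 with the block. For KO arrest against KO embryos, members called numbered 1 with a pseudocount of 0.1, no filter, TPM or the block, and all genes 456 without a filter, 550 with the block and 2081 in 1 fit. For KD ESC, members called numbered 1 with a pseudocount of 0.1, 0 without a filter, 1 with TPM, 0 with the block and 0 in 1 fit, and all genes 313 without a filter, 26 with the block and 93 in 1 fit. In the difference of effects, genes called numbered 257 with a pseudocount of 0.1 and 0 with the block.

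With libraries left out, members and all genes called ranged from 0 to 1 and 87 to 1817 for KO embryos against control embryos, 2 to 4 and 1983 to 3636 for KO arrest against control embryos, 0 to 3 and 285 to 2023 for KO arrest against KO embryos, 0 to 2 and 13 to 686 for KD ESC, 9 to 10 and 5682 to 8651 for control embryos against control ESC, and 0 to 1 and 39 to 2020 for the difference of effects. The Ldhb share differed by −3.80 to 29.0, −31.2 to 1.54, −30.2 to −23.6, −6.64 to 41.2 and 32.2 to 65.0 percentage points in the first 5 of these. Log2 fold changes that turned ranged, for KO embryos against control embryos, from −0.84 to 2.24 (Tpi1), −0.58 to 1.06 (Eno1) and −1.97 to 0.21 (Ldhb). For KO arrest against control embryos they ranged from −0.65 to 2.42 (Tpi1), −0.17 to 0.15 (Pkm) and −1.23 to 0.082 (Ldha). For KO arrest against KO embryos they ranged from −0.078 to 0.64 (Hk1), −0.25 to 0.53 (Tpi1) and −0.39 to 0.64 (Pgk1). For KD ESC they ranged from −0.16 to 0.29 (Hk1) and −0.089 to 0.14 (Eno1), and for control embryos against control ESC from −1.82 to 0.36 (Ldhb). In the difference of effects they ranged from −0.29 to 0.85 (Gpi1), −0.31 to 2.76 (Tpi1), −0.61 to 1.04 (Eno1), −0.20 to 0.063 (Pkm), −1.76 to 1.16 (Ldha) and −1.44 to 0.74 (Ldhb). Groups of 2 and 3 libraries, and a pair of control embryos that correlated at 0.774, limit what these comparisons can show.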
